A study of Nasonia vitripennis with 51 samples.

Results

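Weakly methylated CpGs of the parasitoid wasp Nasonia vitripennis were described from whole-genome bisulphite sequencing, in which converted reads show for each CpG how many reads carried a methylated cytosine. A CpG was a member when every one of the 18 samples fed sucrose had at least 10 reads there and the mean methylation level over those samples was 10% to under 20%. There were 20749 such CpGs, 0.828% of the 2505018 CpGs with that coverage (covered CpGs) and 0.5% of the 4150376 CpGs listed. They lay on 1190 of the 4057 listed sequences. Members were thus chosen by their levels in the sucrose samples, so those levels are given as a description and carry no test.

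The wasps were AsymC, a wild-type laboratory strain without Wolbachia, a bacterium that lives in insect cells. All 51 samples were pools of 10 females, with 24 samples of heads and 27 of bodies (thorax with abdomen). The sucrose regime gave 20% sucrose alone over 24 h (18 samples). The other regimes added 5-aza-2'-deoxycytidine (5-aza-dC) at 10 µM over 24 h (16 samples) or over 48 h (17 samples). Harvest was 0, 24 or 48 h after feeding ended. Each combination of regime, harvest time and tissue had 3 samples, except 3 combinations with 2. There was no group fed sucrose alone for 48 h, so the 48 h regime differed from the others in feeding time as well as in exposure.

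In Nasonia, as in other Hymenoptera, DNA methylation is sparse and sits mostly at CpGs of transcribed genes, where neighbouring CpGs tend to be methylated together, while most other CpGs carry little. DNA methyltransferases keep these marks through cell division and place new ones. 5-aza-dC is a cytidine analogue that is built into replicating DNA and traps these enzymes. A level of 10% to 20% in a pooled tissue can come from a minority of cells, of alleles or of females. Technical background of a library, described below, can also add methylated counts. Bulk counts cannot tell these sources apart.

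The members stood at a sparsely filled part of a distribution with a low and a high end. Of the covered CpGs, 83.6% had a mean under 2%, 11.4% had 2% to 5% and 3.69% had 5% to 10%. Above the members, 2614 CpGs (0.104%) had 20% to 50%, and 10083 had 50% or more. Within the members the number fell steadily with level, from 5981 CpGs at 10% to 11% to 364 at 19% to 20%. The median level was 12.1% (quartiles 10.9% and 14.1%), and 82.2% of members were under 15%. Median coverage was 23.7 reads per sucrose sample, against 25.4 over all covered CpGs.

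The lower limit cut through a continuous slope. The CpGs just inside it were position 514666 of GL341044 at 10.0001% and position 242492 of GL340843 at 10.0002%. Position 2957609 of sequence 5 and position 1401190 of sequence 4, just outside, were both at 9.9999%. At the upper limit, position 110189 of GL341073 (19.9958%) and position 8978920 of sequence 3 (19.9942%) were inside. Position 16186 of ChrUn_0774 (20.0024%) and position 139784 of GL341007 (20.0033%) were outside. Sequence names and positions are those of the deposited table. Its genome build is not given in the sources used here, so no gene, exon or other annotation is attached to them, and no bases are shown.

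Most members were far from any strongly methylated CpG. Only 409 members (1.97%) lay within 100 bases of a CpG with a sucrose mean of 50% or more, and 706 (3.4%) lay further off but within 1000 bases (100 to 1000 bases below). Another 16375 (78.9%) were over 1000 bases from one, and 3259 (15.7%) were on sequences where no covered CpG reached 50%. The last 2 classes together held 19634 members (94.6%) and are called isolated members here. The 409 are called near members. The median distance was 46821 bases for members and 49782 bases for all covered CpGs.

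The share within 100 bases was nonetheless larger than in the bands below, and far smaller than in the bands above. It was 0.0278% for CpGs under 2%, 0.176% at 2% to 5%, 0.436% at 5% to 10% and 0.43% over all covered CpGs. It was 38.3% for CpGs of 20% to 50%, 71.5% at 50% to 80% and 80.7% at 80% or more. The step between members and the next band up was therefore larger than any step below it. Inside the members the share rose with level, from 0.986% at 10% to 11% to 11% at 19% to 20%. The share within 1000 bases rose from 3.39% to 22% over the same levels. Positions on one sequence share reads and are not independent, so these shares carry no test.

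Read the other way, members made up an unusual share of the CpGs that flank methylated stretches. Among covered CpGs 1 to 10 bases from a CpG of 50% or more, 1.43% were members and 91.7% were themselves at 50% or more. At 51 to 100 bases these shares were 6.53% and 42.4%, and from there up to 200 bases they were 6.66% and 20.2%. The member share then dropped to 2.46% at 201 to 500 bases and to 0.782% beyond 10000 bases. On sequences with no CpG of 50% it was 0.834%. The member share of all covered CpGs was thus highest at 51 to 200 bases. Its base includes the CpGs of 50% or more, which took up most covered CpGs closer in. The share among covered CpGs below 50% was not computed by distance bin, so a peak apart from that base is not shown.

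**Figure D1:**
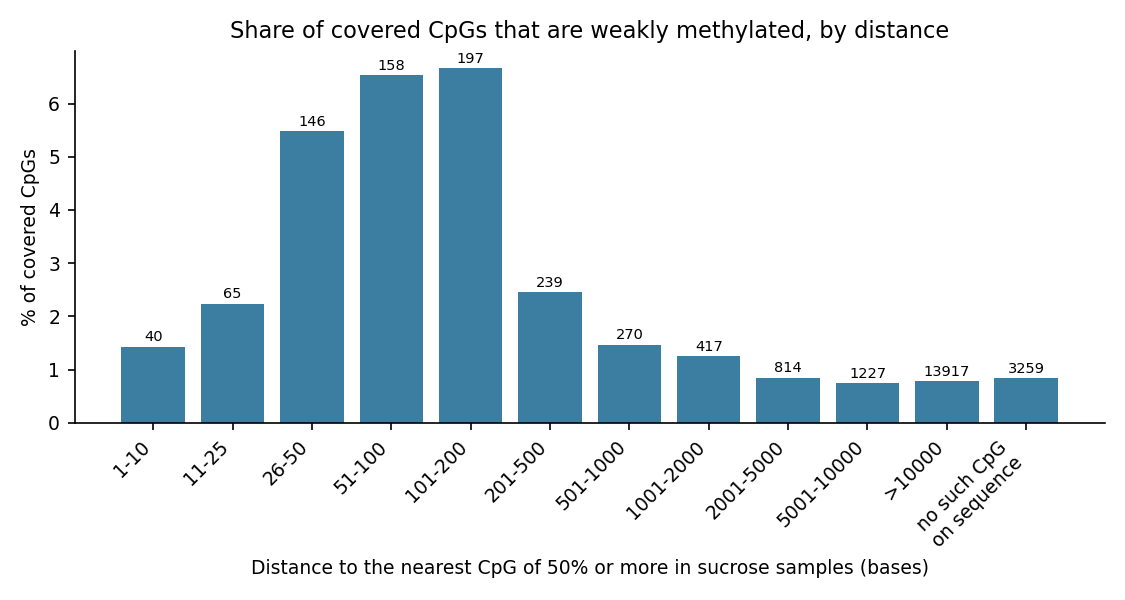
Share of covered CpGs that are weakly methylated (y axis, percent) in bins of distance to the nearest CpG with a sucrose mean of 50% or more (x axis, bases). The number over each bar is the count of weakly methylated CpGs. The share is highest at 51 to 200 bases (6.53% and 6.66%) and is 0.782% beyond 10000 bases. Its base includes CpGs of 50% or more, which are most of the covered CpGs in the nearest bins.

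Most near members had methylated CpGs on one side only, as did most other covered CpGs at that distance that were below 50%. Of the 409, 344 had CpGs of 50% or more on one side only within 100 bases, and 65 (15.9%) had them on both sides. The corresponding both-sided share was 14.1% over all covered CpGs below 50% at that distance, close to that of the members. It was 22% for CpGs of 20% to 50% and 4.12% for CpGs under 2%. Exactly 1 such CpG lay within 100 bases of 226 near members, and 5 or more lay within 100 bases of 20. Near members made up 14.1% of those covered CpGs below 50%. Their median level was 14.3%, against 12% for members over 1000 bases away.

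Isolated members stood in unmethylated surroundings. The median level of the other covered CpGs within 50 bases was 1.06% for members over 1000 bases away and 0.97% for those with no methylated CpG on the sequence, close to the 1% found around all covered CpGs. It was 26.7% around near members and 4.91% around those 100 to 1000 bases away. Another member lay within 10 bases of 4.77% of members and of 0.683% of all covered CpGs. Among near members 42.3% had another member within 50 bases. The isolated ones were thus mainly single CpGs, while the near ones often came in groups.

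Members lay where CpGs were sparse. The median number of other listed CpGs within 50 bases was 4 for members, 8 for all covered CpGs and 2 for CpGs of 50% or more. Where no other CpG was listed within 50 bases, 4.9% of covered CpGs were members. This share was 2.53% with 1 to 2 neighbours, 0.54% with 6 to 10 and 0.224% with 11 or more. Isolated members alone made up 4.63% of covered CpGs with no neighbour and 0.221% of those with 11 or more. Members took similar shares of the sequences named 1 to 5, at 0.785% to 0.866% of covered CpGs, and stood at 0.827% on the other sequences. The share of CpGs of 50% or more varied more over the same sequences, from 0.306% on the others to 0.519% on sequences 1 and 3.

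The near and isolated members with the most reads, leaving out very deep positions, show both settings. Position 1585241 of sequence 2 was 51 bases from a methylated CpG and had a sucrose level of 10.1% ± 5.52 (SD, n = 18), with samples from 0 to 22%. Its 9 covered neighbours within 50 bases were between 1.34% and 14.4%. Position 146446 of sequence 4, only 4 bases from a methylated CpG, had 13% ± 10.3 with samples from 0 to 33.3%, and its 5 neighbours were between 13.6% and 64.1%. In contrast, position 13380861 of sequence 3 was 19577 bases from any methylated CpG. It had 13% ± 8.24 with samples from 0 to 26.7%, and its 5 neighbours within 50 bases were at 0.139% to 1.1%. Position 2425929 of sequence 4 likewise had 10.1% ± 7.45 among 4 neighbours at 0.129% to 1.74%. Position 2885365 of sequence 2, 82055 bases away, had 11.1% ± 6.46 and a single neighbour at 13.1%. The remaining near one, position 12602820 of sequence 1, had no covered CpG within 50 bases and is described with the tissue comparison.

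Single samples varied widely around these means. In 84.8% of members at least 1 sucrose sample had no methylated read, and in 3.53% at least 1 sample reached 50%. The latter share was 15.6% in near members and 3.17% in members over 1000 bases away. The spread between replicates was set against the spread that counting reads alone would give. The median ratio of these variances in sucrose was 2.07 for near members, 1.95 at 100 to 1000 bases, 1.43 beyond 1000 bases and 1.4 with no methylated CpG on the sequence. In 5-aza-dC samples, which did not choose the members, it was 2.3, 1.8, 1.56 and 1.57 in the same order. CpGs of 20% to 50% stood at 1.97 in sucrose and 2.03 in 5-aza-dC, and CpGs of 50% or more at 1.39 and 1.47. By this ratio replicate pools differed more at near members than at isolated ones, in both kinds of sample. The ratio can grow with depth, and near members had a median of 28.2 reads per sucrose sample, against 23.5 beyond 1000 bases. The part of depth and of level was not tested.

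The low levels were found again in the samples that had not chosen them. All 33 samples fed 5-aza-dC had reads (at least 3 each) at 5774 members, 27.8% of them, beside 30.4% of all covered CpGs. The other members lacked reads in one regime or both: 17178 had reads in the 24 h samples and 9345 in the 48 h samples. Over the 33 samples the 5774 members had a median level of 13.1% (quartiles 10.8% and 15.6%), against 12% in sucrose. Their levels stayed at 10% to 20% in 4496 (77.9%), and reached 20% or more in 296 (5.13%). Only 10 fell under 5%, none under 2%, and 4 reached 30%.

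The 5-aza-dC level followed the sucrose level step by step. Members at 10% to 11% in sucrose had a median of 11.2% in 5-aza-dC, those at 14% to 15% had 14.9%, and those at 19% to 20% had 19.4%. CpGs just below the members, at 9% to 10%, had 10.2%. Of isolated members 78.5% stayed at 10% to 20%, and 10 of 5539 fell under 5%. Of near members 62.8% stayed in that range, and of those at 100 to 1000 bases 62.4% did. Of near members 22 of 86 (25.6%) reached 20% or more, and of isolated members 248 (4.48%) did. Near members also began closer to 20%, with a sucrose median of 14.3% against 12%. After 24 h, 51.2% of near and 50.8% of isolated members were above their sucrose level. After 48 h these shares were 67.4% and 61.1%.

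**Figure D2:**
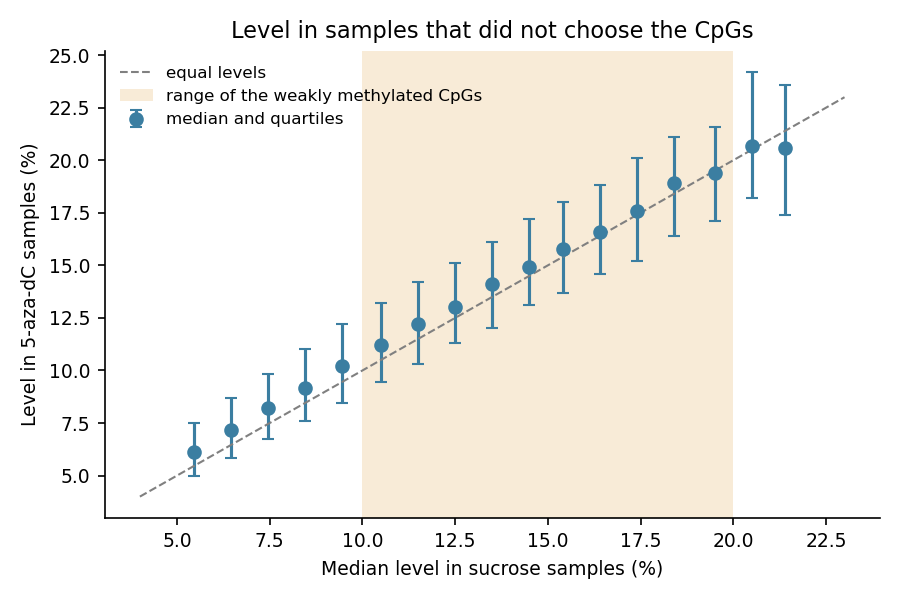
Level in the 33 samples fed 5-aza-dC (y axis, percent; points are medians over CpGs and bars their quartiles) for CpGs grouped in steps of 1 percentage point of the sucrose level (x axis, percent). The shaded range holds the weakly methylated CpGs, whose medians run from 11.2% to 19.4% and lie close to the dashed line of equal levels.

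Libraries differed in depth and in background, and this bears on weak levels. Background was taken as the mean level over 639766 CpGs that had a sucrose mean under 2% and reads in all samples. It ran from 0.318% to 8.72%, and was highest in 3 libraries of bodies fed 5-aza-dC for 48 h (8.72%, 5.55% and 4.12%). Mean depth per CpG ran from 5.64 to 69.5 reads, and was lowest in 2 libraries. These were replicate 1 of the heads taken 48 h after the 24 h exposure (5.64 reads) and replicate 1 of the bodies taken 0 h after the 48 h exposure (6.22 reads). Total reads per sample ran from 10955117 to 200008536. A value of 10 reads moves by 10 points with 1 read. Within a regime a CpG had reads in every sample or in none, so regime and any batch of library making or processing that went with it cannot be told apart.

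Isolated members were lower in heads than in bodies of sucrose samples, opposite to strongly methylated CpGs. The mean over the 5539 isolated members with reads in all samples was 11.6% in 9 head samples, with a lowest of 9.29%, a median of 11.9% and a highest of 14.1%. In 9 body samples it was 13.7%, with a lowest of 12.6%, a median of 13.7% and a highest of 14.7%. The tissues overlapped in part. Background was alike, at 0.653% ± 0.225 in heads and 0.713% ± 0.262 in bodies (SD, n = 9 each). Over the 1748 CpGs of 50% or more, heads were higher, with 86.4% to 87.6% in heads and 80% to 81.3% in bodies and no overlap.

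In sucrose samples near members went the other way from isolated ones. The 86 near members with reads in all samples had 15% ± 1.4 in sucrose heads (12.3% to 17.1%, median 15.2%) and 13.9% ± 2.57 in bodies (11.4% to 19.2%, median 13%), with wide overlap. Taken CpG by CpG over all members, the heads-minus-bodies difference in sucrose had a median of 1.88 points in the 409 near members, and 65.5% of them were higher in heads. It was 0.278 points at 100 to 1000 bases. In isolated members it was -1.78 points, and 66.7% were lower in heads. CpGs of 20% to 50% had 2.82 points and CpGs of 50% or more had 5.58 points. These sucrose values are a description, since the sucrose levels chose the CpGs.

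In 5-aza-dC samples the tissues overlapped at isolated members. After 24 h, isolated members had 8.1% to 15.1% in 7 head samples (mean 13.1%, median 14.2%) and 10% to 16.4% in 9 body samples (mean 12.8%, median 12.3%). After 48 h, heads had 8.97% to 16.9% in 8 samples (mean 12.2%) and bodies 12.3% to 19.3% in 9 samples (mean 15.1%). The 48 h bodies were the highest group. Background in the 48 h bodies was 2.96% on average and 1.89% in the 48 h heads. Without the 3 libraries of highest background the 48 h bodies had 12.3% to 15.9% (mean 14.2%), with a background of 1.38%. Without the 2 shallowest libraries the 24 h heads had 11.8% to 15.1% (mean 13.9%).

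CpG by CpG, the tissue difference in sucrose was weakly related to that in 5-aza-dC samples. The median heads-minus-bodies difference in 5-aza-dC was -1.23 points in isolated members, with 63.6% below 0. In near members it was 0.601 points, with 51.2% above 0 and 48.8% below. Across CpGs, Pearson's r between the difference in sucrose and that in 5-aza-dC was 0.0444 for 5539 isolated members and 0.197 for 86 near members. It was 0.491 for 507 CpGs of 20% to 50%, and 0.677 for 1748 CpGs of 50% or more. The points share libraries and CpGs are not replicates, so these correlations are descriptions.

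**Figure D3:**
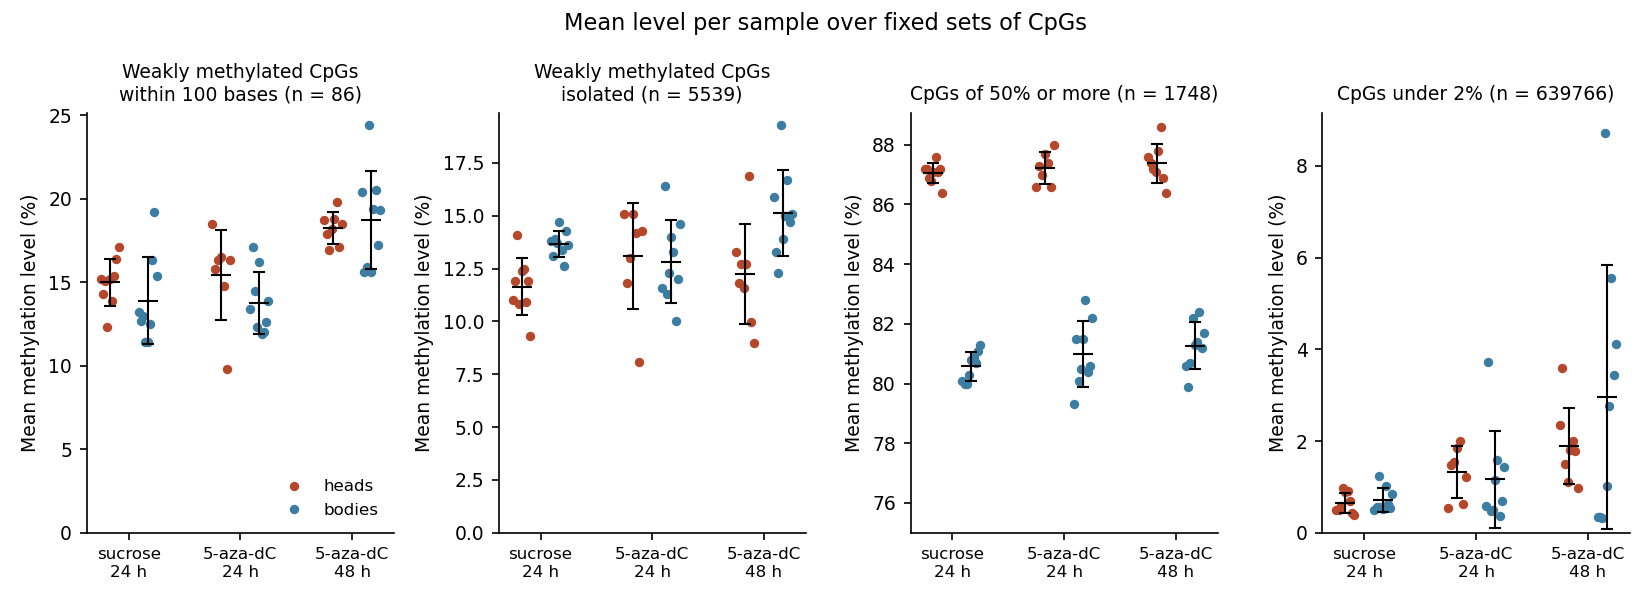
Mean methylation level (y axes, percent) over fixed sets of CpGs with reads in all samples, 1 point per sample, by regime (x axis) and tissue (colour), with the mean and SD of each group in black; the axis for CpGs of 50% or more starts at 75%. Near members are highest after 48 h of 5-aza-dC (15.6% to 24.4%), isolated members overlap between regimes, and the background of CpGs under 2% reaches 8.72% in 1 sample.

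To ask which single CpGs differed, heads and bodies were compared in the 33 samples fed 5-aza-dC, none of which chose the members. Tested were 7531 CpGs with a sucrose mean of 10% or more and 10 reads in at least 28 of the 33 samples. They included 5410 members (26.1% of all members) and 2121 CpGs above 20%. With limma on arcsine-square-root proportions and Benjamini-Hochberg adjustment over all 7531, 5.55% of all tested CpGs passed an adjusted p of 0.05 and are called here. Those higher in heads were 5.18%, and those lower were 0.372%. Among members 23 of 5410 (0.425%) were called, 7 higher in heads with a median difference of 11.2 points and 16 lower with a median of -10.5 points. The adjustment limits false calls over all 7531 tested CpGs, where 371 of the 418 calls were CpGs of 50% or more. It does not limit their share among the members alone, here or in the comparisons below, and that share was not estimated. At an unadjusted p under 0.05 there were 353 members (6.52%), against 16.7% of all tested CpGs.

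The direction of called CpGs changed with level. Of 1657 tested CpGs of 50% or more, 360 were higher in heads and 11 lower. Of 464 tested CpGs of 20% to 50%, 23 were higher and 1 lower. All 16 members lower in heads were isolated, as were 5193 of the 5410 tested members, and 4 isolated members were higher. Of 83 tested near members 1 was called, and of 134 members at 100 to 1000 bases 2 were called, all 3 of them higher in heads. In sucrose, 14 of the 16 members lower in heads also had a difference below 0, and 5 of the 7 higher ones had a difference above 0. Of all isolated members with reads in all samples, 68.6% were below 0 in sucrose. Of all members with such reads 32.1% were above 0. The sucrose levels chose the members, so these counts are a description. Without the 3 libraries of highest background only 13 members were called, 7 higher and 6 lower. After each proportion was corrected for the sample's background, 23 were called, 9 higher and 14 lower.

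The clearest member higher in heads was position 12602820 of sequence 1, 61 bases from a CpG of 50% or more. Its level ran from 4.55% to 59.3% in 14 head samples (median 23.6%) and from 0 to 15.3% in 17 body samples (median 10.1%). Most head samples were above the body samples, with some overlap. The means were 24.8% ± 11.8 and 9.19% ± 4.45 (SD), and the limma adjusted p was 0.00611. In sucrose the same CpG had 20.1% in heads and 12.1% in bodies. With no filter on level the adjusted p was 0.0508. Of its 5 covered neighbours within 200 bases, 1 was at 50% or more and 4 were between 10% and 50%.

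A pair of further CpGs higher in heads met the rule for naming, both on GL341019. Position 3728173, 218 bases from a methylated CpG, ran from 4.17% to 43.6% in heads (median 19.7%) and from 0 to 26.7% in bodies (median 5.88%), with an adjusted p of 0.0254 by limma. Position 2628191, 412 bases away, ran from 4.55% to 45.8% in heads (median 16.2%) and from 0 to 20% in bodies (median 9.38%), with an adjusted p of 0.0373. Groups overlapped at both. The call at position 2628191 was lost in 16 of 38 alternative fits. At position 3728173 leaving out any of 3 libraries ended the call (adjusted p up to 0.0849), as did no filter on level (0.288). These were replicate 1 of the heads taken 24 h after the 24 h exposure, and replicate 1 of the heads and replicate 3 of the bodies taken 0 h after the 48 h exposure.

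The members named as lower in heads were all isolated, as were 5193 of the 5410 tested members. Position 9873241 of sequence 5, 74096 bases from a methylated CpG, ran from 3.03% to 28.6% in 14 head samples (median 9.35%) and from 7.89% to 54.5% in 17 body samples (median 27.3%). Bodies were mostly higher and the groups overlapped (12% ± 8.14 against 28.1% ± 12.9, limma adjusted p = 0.00512). All of its 14 covered neighbours within 200 bases were under 10%. The call held in all 39 alternative fits that tested this CpG. The sucrose samples showed little of the difference, with 16.3% in heads and 17.8% in bodies.

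Next came position 10611611 of sequence 2, with 4.55% to 28% in heads (median 13.8%) and 9.52% to 38.1% in bodies (median 29%), adjusted p = 0.0185 by limma. Position 8395884 of sequence 1 had 0 to 23.6% in heads (median 13.5%) and 15.8% to 46.2% in bodies (median 26.5%), adjusted p = 0.021 by limma. Position 13828758 of sequence 3 had 2.44% to 20.7% in heads (median 10.1%) and 3.12% to 37.5% in bodies (median 24.9%), adjusted p = 0.0226 by limma. Heads were lower on average at each, and no pair of groups was fully separate. They were 82784, 237569 and 1619 bases from a methylated CpG. Sucrose heads were also lower at these positions, with 18%, 10.3% and 9.46% on average, against 21.9%, 15.6% and 14.9% in bodies. Without the 3 libraries of highest background the calls at position 13828758 (adjusted p = 0.108) and position 8395884 (adjusted p = 0.0509) ended. Without the body samples whose titles and characteristics differ in harvest time they also ended (0.123 and 0.0602). With no filter on level all 3 calls ended (adjusted p of 0.227 to 0.304), and at 5 reads per value that at position 8395884 did (0.118). The call at position 8395884 further ended without either of 2 single libraries, with adjusted p up to 0.0524. These were replicate 1 of the heads taken 24 h after the 24 h exposure, and replicate 1 of those taken 0 h after the 48 h exposure.

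Longer exposure went with higher levels at near members. Their mean over 86 CpGs ran from 11.4% to 19.2% in 18 sucrose samples (median 14.7%), from 9.8% to 18.5% in 16 samples after 24 h of 5-aza-dC (median 14.6%) and from 15.6% to 24.4% in 17 samples after 48 h (median 18.5%). The 48 h samples were the highest group and overlapped with the others. The sucrose samples of the 48 h harvest alone had 15.4% to 19.2% (mean 16.6%). Over both 5-aza-dC exposures the mean at that harvest was 16.1%, against 16.7% at 0 h and 16.8% at 24 h. The part of feeding time, which also differed between the exposures, was not tested. In heads alone, 8 samples after 48 h had 16.9% to 19.8% and 7 samples after 24 h had 9.8% to 18.5%. In bodies, 9 samples after 48 h had 15.6% to 24.4% and 9 after 24 h had 11.9% to 17.1%. Without the 3 libraries of highest background the 48 h samples had 15.6% to 20.4% (mean 17.9%), against 14.5% after 24 h. Background was also higher after 48 h, at 1.67% without those libraries against 1.23%, and its part in the difference was not tested.

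Isolated members differed less between regimes than between samples of a regime. Their mean was 12.6% ± 1.46 in sucrose (n = 18) and 12.9% ± 2.13 after 24 h (n = 16). After 48 h it was 13.8% ± 2.62 (n = 17), and 13.1% (8.97% to 16.9%) without the 3 libraries of highest background. CpG by CpG, the median difference between 48 h and 24 h was 0.84 points in isolated members and 3.07 points in near members, of which 67.4% were higher after 48 h. CpGs of 50% or more had a median of 0.138 points. The library with the highest background (8.72%) also had the highest mean over isolated members (19.3%).

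The comparison of 48 h with 24 h of 5-aza-dC called 1.47% of all tested CpGs, 0.943% higher and 0.531% lower after 48 h (limma, adjusted p under 0.05). Among members 25 of 5410 (0.462%) were called, 19 higher with a median of 16.9 points and 6 lower with a median of -14.3 points. At an unadjusted p under 0.05 there were 292 (5.4%), against 7.83% of all tested CpGs. Called members were distributed unevenly over the distance classes. Of near members 7 of 83 (8.43%) were higher and none was lower, with a median of 21.1 points. Another member lay within 100 bases of 47.4% of all near members. Neighbours among the duration calls were not counted, so these calls may not be separate sites. At 100 to 1000 bases 6 of 134 (4.48%) were higher and none was lower. Among isolated members 6 were higher and 6 lower, of 5193 (0.231%). CpGs of 20% to 50% had 43 of 464 called (9.27%), 27 higher and 16 lower, and CpGs of 50% or more had 43 of 1657 (2.6%). No member was called for both tissue and duration. With only 0.425% and 0.462% of members called, this says little about whether the sets are distinct. With the background correction 29 members were called, 18 higher and 11 lower.

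**Figure D4:**
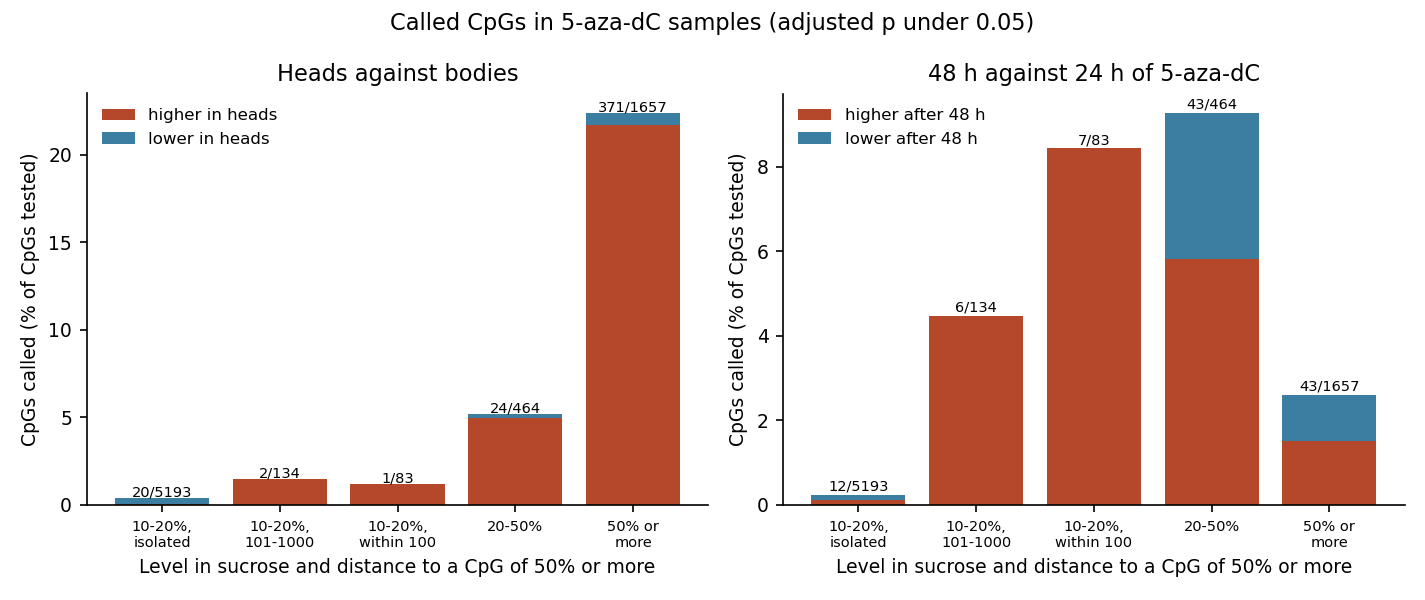
Share of tested CpGs called in 5-aza-dC samples (y axes, percent; limma, adjusted p under 0.05) for heads against bodies (left) and 48 h against 24 h (right), by sucrose level and, for weakly methylated CpGs, distance to a CpG of 50% or more (x axes); colours give the direction and numbers give called over tested CpGs. Tissue calls rise with level to 371 of 1657, while duration calls are 12 of 5193 in isolated members and 7 of 83 in near members.

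The 3 CpGs named as higher after 48 h lay 84 to 182 bases from a methylated CpG. CpG 1 of the plot of single CpGs is position 3474138 of sequence 1, 130 bases from a methylated CpG. It ran from 0 to 29.5% in 13 samples after 24 h (median 8.7%) and from 16% to 73.3% in 16 samples after 48 h (median 37.1%). Only the upper end of the first group met the lower end of the second (10.6% ± 9.74 against 39.5% ± 16.9, limma adjusted p = 2.43e-05). Sucrose samples ran from 0 to 35.3% (median 12.5%), and were highest at the 48 h harvest (10% to 35.3%, n = 6).

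CpG 2, position 1365524 of GL340968, is 182 bases from a methylated CpG. It ran from 0 to 19% after 24 h (n = 14, median 8.47%) and from 9.68% to 65.6% after 48 h (n = 16, median 37.1%), with an adjusted p of 1.55e-05 by limma. CpG 3, position 41978 of ChrUn_0265, is 84 bases away. It ran from 2.94% to 44.4% after 24 h (n = 15, median 14.5%) and from 22.6% to 53.3% after 48 h (n = 16, median 41.1%), with an adjusted p of 4.11e-05. At CpG 3 the highest samples after 24 h, at 25.9% and 44.4%, stood within the range of the 48 h samples. All 3 calls held in every alternative fit that tested the CpG (39, 40 and 40 fits for CpGs 1 to 3). Sucrose means were 15.2% and 18%, nearer to the 24 h samples, and again highest at the 48 h harvest (22.2% and 26.3%).

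The 6 members lower after 48 h were isolated, as were 5193 of the 5410 tested. CpG 4, position 18736 of GL341005, is 3631 bases from a methylated CpG and had the smallest adjusted p among members. It ran from 0 to 58.3% in 14 samples after 24 h (median 41.8%) and from 0 to 15.4% in 16 samples after 48 h (median 0), with limma adjusted p = 3.9e-06. More than 40 points thus separated the medians, although 1 sample after 24 h was at 0. The 18 sucrose samples covered both, from 0 to 58.3% (median 20.6%). The call held in all 39 alternative fits that tested this CpG, and the only covered neighbour within 200 bases was under 10%.

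CpG 5, position 28973 of GL341024, ran from 0 to 50% after 24 h (n = 15, median 20%) and from 0 to 7.55% after 48 h (n = 16, median 3.06%), adjusted p = 0.0349 by limma. This call was lost in 19 of 39 alternative fits, 16 of which left out 1 library. CpG 6, position 28190266 of sequence 1, ran from 4.35% to 42.9% after 24 h (n = 13, median 16%) and from 0 to 20% after 48 h (n = 16, median 7.88%), adjusted p = 0.0149 by limma. The groups overlapped at both. The latter call was lost at 5 reads per value (adjusted p = 0.284), under the quasi-binomial model (0.246), with no filter on level (0.0819) and without either of 2 libraries (adjusted p up to 0.0671). These were replicate 2 of the heads taken 24 h after the 24 h exposure and replicate 2 of the bodies taken 0 h after the 48 h exposure.

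**Figure D5:**
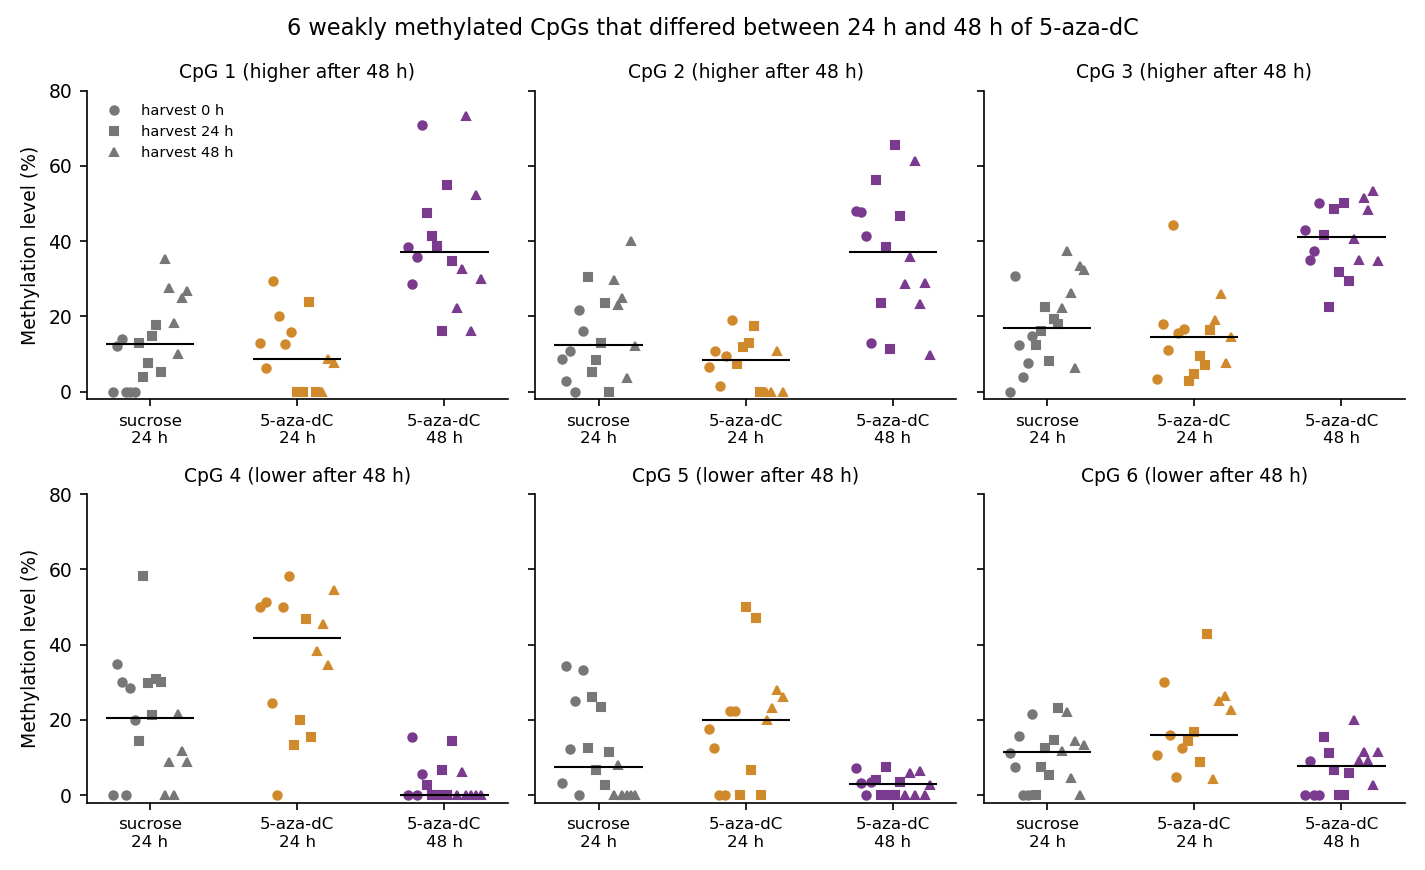
Methylation level (y axes, percent) of 6 weakly methylated CpGs in each sample with at least 10 reads, by regime (x axis) and harvest time (marker shape), with the median of each regime as a line. CpGs 1 to 3 have medians of 37.1% to 41.1% after 48 h of 5-aza-dC; CpGs 4 to 6 have medians of 0 to 7.88% there, and sucrose samples spread over both ranges at CpG 4 (0 to 58.3%).

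Few members were called for harvest time. Over the 5774 members the mean in 5-aza-dC samples was 13.3% ± 1.77 at 0 h, 14.1% ± 2.07 at 24 h and 12.9% ± 3.12 at 48 h (SD, n = 11 each), which is within the spread of samples. In sucrose it was 13%, 12.9% and 12.2% (n = 6 each). Near members in sucrose had 12.7% to 15.2% at 0 h, 11.4% to 15.2% at 24 h and 15.4% to 19.2% at 48 h, so the last group was the highest and did not overlap with the others. In 5-aza-dC the near members showed no such order, at 16.7%, 16.8% and 16.1%.

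With limma's moderated variances, 0.0266% of all tested CpGs were called for harvest time, and the 2 called were both members (adjusted p = 0.0262 each). At an unadjusted p under 0.05 there were 287 members (5.3%), against 6.08% of all tested CpGs. Position 145630 of GL341226, 1232 bases from a methylated CpG, ran from 0 to 22.4% at 0 h (n = 11, median 7.69%), from 8.7% to 75% at 24 h (n = 11, median 48%) and from 0 to 43.4% at 48 h (n = 10, median 17.2%). Its level was highest at 24 h in both exposures, with means of 30.4% after 24 h and 57.3% after 48 h of feeding. Position 26748374 of sequence 1 ran from 0 to 17.5% at 0 h (n = 9, median 0), 3.85% to 25.5% at 24 h (n = 10, median 14.2%) and 7.69% to 31.2% at 48 h (n = 10, median 18.2%). In sucrose the first had means of 10.3%, 13.9% and 8.14% at the 3 harvests, and the second had 8.45%, 17.7% and 13.5%. The quasi-binomial model called neither (adjusted p = 0.112 and 0.712), nor were they called without the 3 libraries of highest background (0.109 and 0.147) or without the body samples of differing titles (0.262 each). The count fell to 0 or 1 in 13 of the 33 fits that left out 1 library.

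No interaction was called at any single member with limma. The tissue-by-duration interaction called 0 of 5410 members with limma, with a lowest adjusted p of 0.454. There were 438 members (8.1%) at an unadjusted p under 0.05, against 6.81% of all tested CpGs, and the quasi-binomial model also called 0. The duration-by-harvest-time interaction called 0 members with limma, with a lowest adjusted p of 0.126 and 349 members (6.45%) at an unadjusted p under 0.05, against 6.57% of all tested CpGs, and the quasi-binomial model called 1. All tested CpGs together gave 0% called in both.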

How the data were processed

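Whole-genome bisulphite sequencing was run on 51 pools of females. Per the labels' protocols, the EZ DNA Methylation kit was used for conversion, and TruSeq DNA methylation libraries were read on an Illumina HiSeq. The submitters' processing notes name cutadapt 1.12, Bismark 0.16, Bowtie2, SAMtools, methylKit 0.99.3 and R 3.3.1. The authors deposited, per CpG and sample, the count of methylated reads over the total count, not normalized. The genome build and the handling of duplicate reads are not given in the sources used here. Of pairs of listed positions, 13 were 1 base apart and 544379 were 2 apart, so the strands of a CpG were not listed separately.

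Proportions with at least 10 reads entered the tests, and 8.29% of values at tested CpGs were missing. Levels per sample used every deposited value. The 33 5-aza-dC samples, which form 12 combinations of regime, harvest time and tissue, were fitted in limma 3.58.1 (R 4.3.3, variances moderated without trend), as arcsine-square-root proportions with a mean for each combination. F tests were computed from the fitted means and moderated variances, since limma's own F is approximate with missing values. P-values were adjusted over the 7531 tested CpGs. The main limma fit was tried on simulated counts in which differences were planted between tissues only. The alternative fits were not tried in this way. Descriptions and figures were made in Python 3.11.15 with pandas 2.3.3, numpy 2.4.6, matplotlib 3.10.9 and scipy 1.17.1.

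The members, lists and tests were chosen with earlier results of these data known. CpGs were named by rule. For tissue up to 4 and for duration up to 3 called members in each direction were named, those with the largest difference and the same sign in all 6 strata. The 2 members called for harvest time, the 2 CpGs inside and outside each limit, and the 3 near members and 3 members over 10000 bases away with most reads were also named. Samples were grouped by their characteristics. For 9 body samples, 6 of them fed 5-aza-dC, the harvest time in the title differs or is missing. Separate pools are stated, but heads and bodies may come from the same females and were treated as independent. Samples of one combination had identical counts at up to 1.28% of CpGs, and samples of different combinations at up to 8.31%. None was treated as a repeat of another. No interval is given for single values, and all spreads are between samples.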

Additional observations from a re-analysis of the deposited data

Results flagged for a closer look

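Of 30 groups of samples checked for a sample far from the others, 2 held one, and chance alone flags about 1 in 20 groups. In heads fed 5-aza-dC for 24 h, replicate 1 of the 48 h harvest had a mean of 9.8% over the near members, and the nearest of the other 6 samples had 14.8%. That library had the lowest depth, 5.64 reads per CpG. In bodies fed 5-aza-dC for 24 h, replicate 2 of the 0 h harvest had a mean of 3.72% over CpGs under 2%, and the nearest of the other 8 samples had 1.58%. Its mean over isolated members was 16.4%, the highest of its group.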

How the results depend on the processing

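The 23 members called for tissue became 1 with no filter on level, 40 at 5 reads per value, 14 without the body samples whose title gives another harvest time, 3 with 2 values in every combination and, in an alternative chosen after seeing the data, 13 without the 3 libraries of highest background. The 25 called for duration became 15 with no filter on level and 15 under the quasi-binomial model. They became 10 at 20 reads and 2 with 2 values in every combination. The last 2 settings tested fewer members (1273 and 378). Duration calls were 0.786% and 0.529% of these, against 0.462% in the main fit. Tissue calls were 1.41% and 0.794%, against 0.425%. Over all tested CpGs these shares were 3.64% and 1.7% for duration, and 13.3% and 8.35% for tissue. With no filter on level the adjustment ran over 728342 CpGs. The 2 called for harvest time became 1 after background correction, and 0 under the quasi-binomial model, at 20 reads, without the body samples of other title, with 2 values in every combination and without the 3 libraries. The duration-by-harvest-time interaction called 1 under the quasi-binomial model and 1 at 5 reads. Leaving out 1 library gave 13 to 30 for tissue, 6 to 27 for duration, 0 to 2 for harvest time and 0 to 1 for that interaction. The lowest counts for tissue and duration came without replicate 2 of the heads taken 48 h after the 24 h exposure, which leaves 637 testable CpGs, and tissue gave 15 without replicate 2 of the bodies taken 24 h after the 24 h exposure. Of the 23 tissue calls, 17 were shared with the background-corrected fit, 10 with the quasi-binomial fit (33 calls) and 13 with the fit at 5 reads. Of the 25 duration calls, 24 were shared with the background-corrected fit. Leaving out the 2 shallowest libraries, also chosen after seeing the data, gave 21 and 24. At 20 reads in each sucrose sample 1389 CpGs met the rule. The share near a methylated CpG was 0.892% with references of 80% or more, 2.29% with references of 3 reads, 1.21% within 50 bases and 4.07% within 500 bases. No named CpG changed direction. Among tissue calls the lower ones prevailed (16 of 23), but without the 3 libraries of highest background 7 of 13 were higher. No paired analysis was possible because replicates were numbered in sample order and the labels pair none of them. Depth limits single values, since 1 of 10 reads is 10 points.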
